A study of Caenorhabditis elegans with 4 samples.

Results

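*miR-90*, *miR-50* and *miR-62* are 3 *C. elegans* miRNAs that begin with the same bases. They were taken by name (cel-mir-90, cel-mir-50 and cel-mir-62) from a count table of 148 miRNA names, and each of the 3 names has a row there. The table holds small RNA of synchronized larvae of the first stage (L1), from 2 libraries of *pry-1(mu38)* and 2 libraries of the wild type N2. *pry-1* encodes the worm Axin, a scaffold that restrains WNT signalling, and the mutant strain carries the allele *mu38*. Both strains were grown at 20 °C on standard plates and synchronized by bleaching. The study describes the profiled animals as late in L1, and the hours of growth before harvest of these libraries are not given in the sources used here. It reports that *pry-1* mutants grow more slowly, and for its qRT-PCR the mutant larvae were grown for longer than N2. Whether the strains differ in age within L1 in these libraries was not tested. Whole animals were extracted, so fewer cells that make a miRNA and less of it per cell cannot be told apart, and *pry-1* itself is not measured by small RNA counts. The deposited counts summed to 3284425 and 4651818 in the *pry-1(mu38)* libraries and to 6651178 and 6491918 in the N2 libraries. *pry-1(mu38)* replicate 2 stood apart in *lin-4*, a miRNA that times larval development, with 25.9 and 735 normalized counts (TMM CPM, explained with the strain test) in *pry-1(mu38)*, against 17.7 and 19.5 in N2, so results are also given without that library.

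A miRNA guides an Argonaute protein to messenger RNAs, and the bases that follow its first base, the seed, do most of the target recognition. miRNAs with a shared seed are grouped as a family because they can recognize the same sites. Most miRNAs are cut from a long hairpin transcript by the nuclease Drosha and then by Dicer. A mirtron takes another route, known from flies and worms. Its hairpin is a short intron that is released by splicing, so that the ends of the hairpin are the splice sites and Drosha is not needed.

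The sequences below show the seed that defines the family, in capitals, for the most abundant member and for the mirtron, as the supplement of the study lists them.
miR-90: uGAUAUGUuguuugaaugccccu
miR-62: uGAUAUGUaaucuagcuuacag
The 3 members shared their first 8 bases, and the seed GAUAUGU was found in 3 of the 1999 sequences listed by the study, known and candidate miRNAs together, which were these 3. Past the first 8 bases the members had little in common. *miR-90* and *miR-62* were identical at 4 of 14 further positions, *miR-90* and *miR-50* at 2 of 15, and *miR-50* and *miR-62* at 4 of 14.

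The hairpin of *miR-62* is an intron by its position, and the mature *miR-62* ends in AG. Whether the mature *miR-62* carries the 3′ end of the intron was not tested, since hairpin and intron sequences were not at hand. In *C. elegans* introns usually end in AG. The last 7 bases of *miR-62*, CUUACAG, were set as the end that it shares with *miR-1018*, which therefore carries them by definition. They were found in 7 of the 157 known miRNAs listed, 4.46% of them, with these 2 included. They are shown in capitals for the mirtron and for 3 others of chromosome X with a row in the table.
miR-62: ugauauguaaucuagCUUACAG
miR-1018: agagagaucauuggaCUUACAG
miR-4807: aaaugcgacuucugggCUUACAG
miR-4808: aagcucuauucucuCUUACAG
Of the 7 with this end, 2 had a hairpin that matches an annotated intron, *miR-62* and *miR-4816*. The match of letters is a description and does not show how the other miRNAs are made.

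The members also differ in how their hairpins sit in the genome (WBcel235, Ensembl annotation). *mir-90* lies on chromosome III from 8873987 to 8874084 on the minus strand, within an intron of 4047 bases of the protein-coding gene K01F9.2 on the same strand. *mir-50* lies on chromosome I from 1738635 to 1738733 on the plus strand, within an intron of 299 bases of *tln-1*, which encodes talin, a linker between integrins and actin. Both hairpins lie well inside their introns, and the nearer intron end is 93 bases from *mir-50* and 1278 bases from *mir-90*. *mir-62* lies on chromosome X from 12692608 to 12692665 on the plus strand, and these 58 bases are exactly an intron of *ugt-50*, a gene named for UDP-glucuronosyltransferase, an enzyme class that conjugates small molecules. Of the 143 names of the table found in the annotation, 35 lay in an intron of the same strand, and 3 had both ends on those of an intron, *mir-62*, *mir-1020* and *mir-4816*.

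The columns of the count table were displaced against each other in stretches, so the counts of the members were placed before use, by the read totals that the study lists for each miRNA. The row of *miR-90* needed no change, since its 4 printed counts summed to 2679127, the listed total. The row of *miR-50* met its total of 49005 when the count of N2 replicate 2 was taken from 2 rows above, 17592, in place of the printed 109323. The row of *miR-62* was 3 reads short of its total when the count of N2 replicate 2 was taken from 1 row above, 224, in place of the printed 801. The nearest placed miRNAs whose sums met their totals exactly, *miR-60* before it and *miR-64* after it, had the same displacement of 1 row. With the *pry-1(mu38)* counts left as printed, no other displacement of N2 replicate 2 by up to 3 rows came nearer than 26.7% to the *miR-62* total. Displacements of the *pry-1(mu38)* columns are not covered by that figure. The placement of *miR-62* is thus less firm than that of the other members, and its N2 replicate 2 value rests on it.

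**Figure D1:**
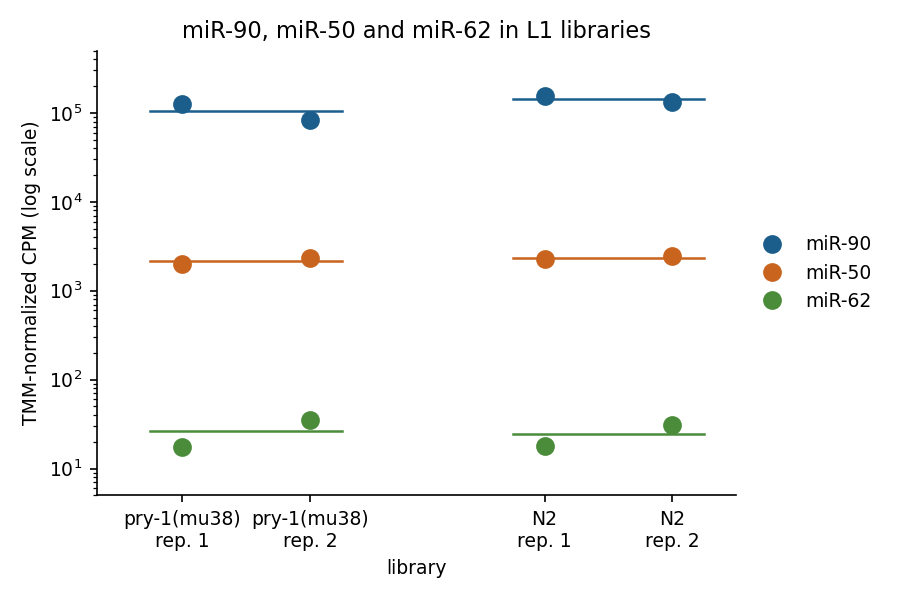
TMM-normalized counts (CPM, from library totals scaled by TMM, log scale) of the 3 members in each library, with *pry-1(mu38)* left of N2. Points are libraries and lines the mean of the 2 libraries of a strain. The members lie in separate ranges, with *miR-90* at 82510 CPM or more, *miR-50* between 2001 and 2444 CPM and *miR-62* between 17.4 and 35.4 CPM.

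*miR-90* dominated the family in every library. *miR-90* had 381560 and 414653 counts in *pry-1(mu38)*, against 932665 and 950249 in N2. These counts made up 98.4% and 97.2% of the family in the *pry-1(mu38)* libraries and 98.6% and 98.2% in the N2 libraries. The dominance overlapped between the strains, and the difference of the means was -0.55 percentage points (exact permutation test, two-sided, p = 0.667, adjusted p = 0.667). With 2 libraries against 2 the smallest p of this test is 0.333. The difference was 0.0531 percentage points without *pry-1(mu38)* replicate 2 and -1.15 without *pry-1(mu38)* replicate 1. *miR-90* was also among the most abundant miRNAs of all, with the rank of 2 in *pry-1(mu38)* replicate 1 and in both N2 libraries and the rank of 4 in *pry-1(mu38)* replicate 2. Summed over the 4 libraries, only *miR-228*, with 4597473 counts, lay above it among the placed miRNAs, and *miR-235* followed with 2107482.

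*miR-50* came next. It had 6108 and 11749 counts in *pry-1(mu38)* and 13556 and 17592 in N2, with ranks of 31 and 27 in *pry-1(mu38)* and of 29 and 27 in N2 among the rows of a library. *miR-62* was the rarest member, with 53 and 178 counts in *pry-1(mu38)* and 107 and 224 in N2. Its ranks were 119 and 107 in *pry-1(mu38)* and 115 and 103 in N2. The order of the 3 levels was thus the same in the 4 libraries, and no 2 neighbours in that order came near each other.

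The table gave a second row for *miR-90* and for *miR-50*, without an arm label, and 1 row for *miR-62*. Read totals do not check these second rows, which were read at the displacement of the main row. The second row of *miR-90* had 61 and 72 counts in *pry-1(mu38)* and 73 and 119 in N2. The second row of *miR-50* had 24 and 9 counts in *pry-1(mu38)* and 27 and 16 in N2. The main row therefore outnumbered the second one between 5759 and 12776 times for *miR-90*, and between 255 and 1305 times for *miR-50*.

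The family as a whole took a smaller share of the *pry-1(mu38)* libraries than of the N2 libraries. The share was 11.8% (95% exact Clopper-Pearson interval 11.77 to 11.84) and 9.17% (9.14 to 9.20) of all counts in *pry-1(mu38)*. In N2 it was 14.2% (14.20 to 14.25) and 14.9% (14.88 to 14.94). These intervals cover counting error only, because reads copied by PCR and not tagged per molecule are not independent. Both *pry-1(mu38)* libraries were below both N2 libraries, with means of 10.5% ± 1.86 in *pry-1(mu38)* and 14.6% ± 0.484 in N2 (SD, n = 2 libraries each). The exact permutation test gave the smallest p it allows, 0.333 (0.667 after adjustment over the 5 measures of the family that were tested). *miR-228*, the most abundant miRNA, had 220447 and 265998 TMM-normalized CPM in *pry-1(mu38)* and 212816 and 182890 in N2. With *miR-228* taken out of the library totals, the difference of the family share was -4.29 percentage points, against -4.08 with it. The difference was -2.77 percentage points without *pry-1(mu38)* replicate 2 and -5.40 without *pry-1(mu38)* replicate 1.

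**Figure D2:**
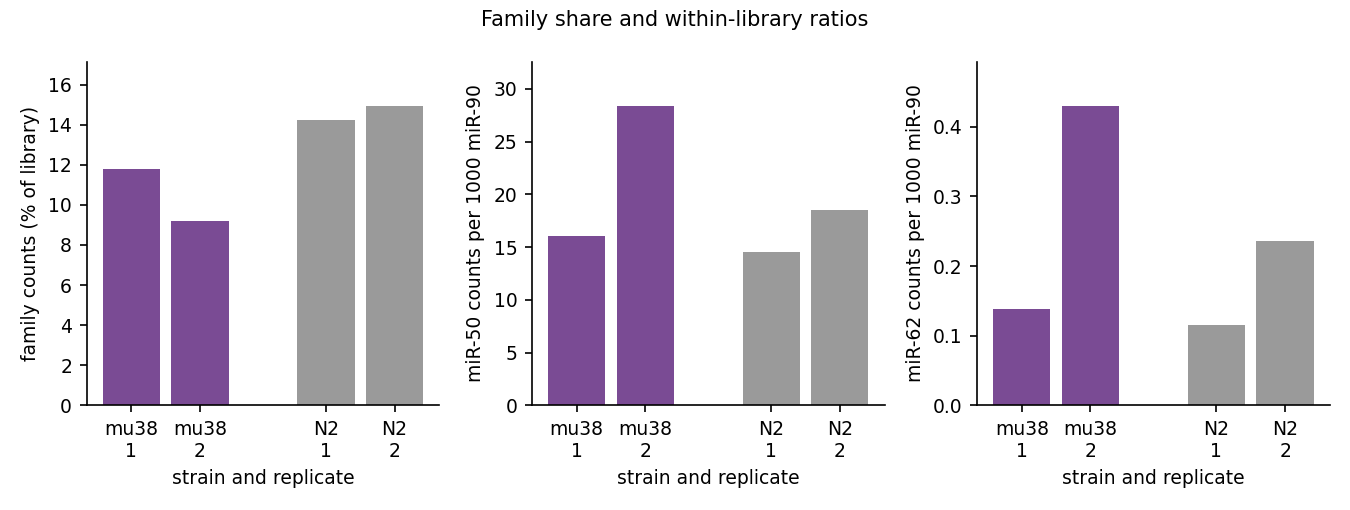
Family counts as a percentage of all counts (left), and *miR-50* (middle) and *miR-62* (right) counts per 1000 *miR-90* counts, by library, with the *pry-1(mu38)* libraries (mu38) left of the N2 libraries. The family share of the *pry-1(mu38)* libraries, 11.8% and 9.17%, lies below both N2 libraries, and both ratios are highest in *pry-1(mu38)* replicate 2.

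The strains were then compared miRNA by miRNA with edgeR's quasi-likelihood test on the 83 placed miRNAs that passed its filter on low counts, with library sizes scaled by TMM, which sets libraries against each other by the miRNAs that differ least. Levels are given as TMM-normalized CPM. Of the 83, 0 had an adjusted p-value under 0.05 (0% called), and 9 were under 0.05 before adjustment (10.8%). The exact test of edgeR called 1 miRNA, *miR-246*, and DESeq2's Wald test called 3, *miR-246*, *lin-4* and *miR-237*, none of them a member. Without *pry-1(mu38)* replicate 1 the edgeR count was 8, and without *pry-1(mu38)* replicate 2 it was 2, again with no member among them. The median log2 fold change of the 83, as *pry-1(mu38)* over N2, was 0.12.

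*miR-90* had 124970 and 82510 TMM-normalized CPM in *pry-1(mu38)*, against 156134 and 132021 in N2. Both *pry-1(mu38)* libraries were below both N2 libraries, also with library totals alone, upper-quartile scaling and DESeq2 size factors. Of the 83 miRNAs, 15.7% were separated in this direction and 31.3% in the other. The log2 fold change was -0.47 (SE 0.29, 95% interval -1.17 to 0.22, edgeR adjusted p = 0.629). The difference was thus not told apart from the spread between these libraries, for which 2 libraries per strain leave the test little power. It was -0.52 without *pry-1(mu38)* replicate 2, -0.76 without *pry-1(mu38)* replicate 1 (edgeR adjusted p = 0.0740) and -0.80 with upper-quartile scaling, which also moved the median of the 83 miRNAs by -0.29.

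*miR-50* had 2001 and 2338 TMM-normalized CPM in *pry-1(mu38)*, against 2269 and 2444 in N2. The strains overlapped, and the log2 fold change was -0.12 (SE 0.33, 95% interval -0.92 to 0.68, edgeR adjusted p = 0.890). Without *pry-1(mu38)* replicate 2 it was -0.56, and without *pry-1(mu38)* replicate 1 its sign turned, to 0.03.

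*miR-62* had 17.4 and 35.4 TMM-normalized CPM in *pry-1(mu38)*, against 17.9 and 31.1 in N2. Its 2 strains spanned nearly the same range, with means of 26.4 ± 12.8 CPM in *pry-1(mu38)* and 24.5 ± 9.34 CPM in N2 (SD over 2 libraries each). Its log2 fold change was 0.11 (SE 0.52, 95% interval -1.14 to 1.36, edgeR adjusted p = 0.914), and with upper-quartile scaling it was -0.11. Without *pry-1(mu38)* replicate 2 it was -0.83 and without N2 replicate 1 it was -0.23, so that no direction held. With all rows read as printed, and so with 801 counts in N2 replicate 2, the log2 fold change of *miR-62* was -1.57.

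**Figure D3:**
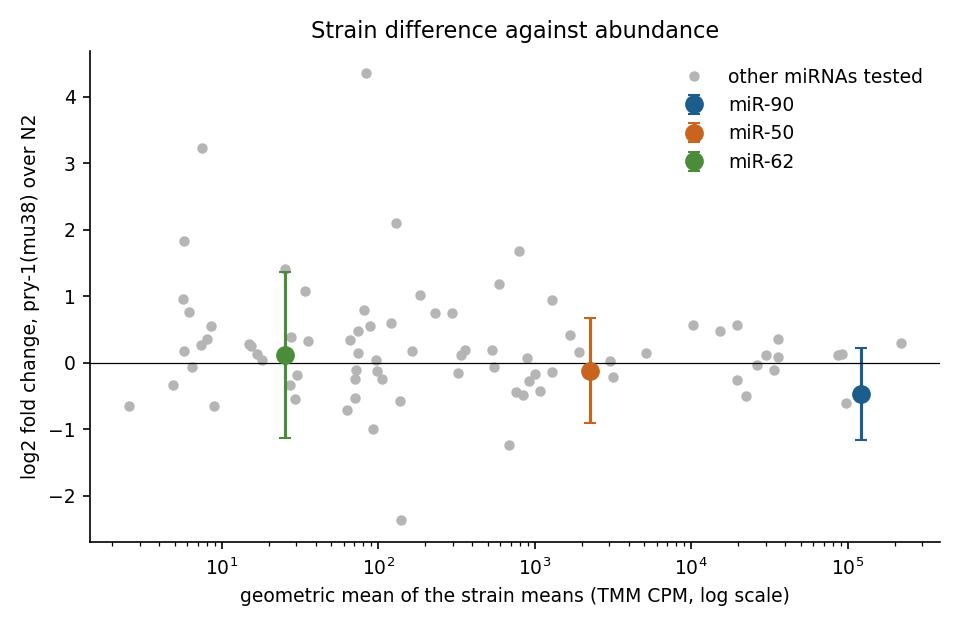
Log2 fold change (*pry-1(mu38)* over N2) against abundance (geometric mean of the strain means in TMM-normalized CPM, log scale) for the 83 miRNAs tested; bars on the members are 95% intervals from the edgeR fit. The intervals of the 3 members include 0, with *miR-90* lowest at -0.47.

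Ratios between members are taken within a library and do not depend on how libraries are scaled. There were 16.0 and 28.3 *miR-50* counts per 1000 *miR-90* counts in *pry-1(mu38)*, against 14.5 and 18.5 in N2. *pry-1(mu38)* replicate 2 stood highest, and the other 3 libraries lay within 14.5 to 18.5. For *miR-62* there were 0.139 and 0.429 counts per 1000 *miR-90* counts in *pry-1(mu38)*, against 0.115 and 0.236 in N2. The strains overlapped in both ratios (exact permutation test, two-sided, p = 0.667 for each, adjusted p = 0.667). Without *pry-1(mu38)* replicate 2 both differences turned, to -0.52 for *miR-50* and -0.0363 for *miR-62*.

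The mirtron beside the hairpin member that was nearest to it in level gave 8.68 and 15.2 *miR-62* counts per 1000 *miR-50* counts in *pry-1(mu38)*, against 7.89 and 12.7 in N2. The replicate 2 library was the higher one in each strain. The strains overlapped (difference of means 1.60, exact permutation test, two-sided, p = 0.667, adjusted p = 0.667). The difference turned to -1.64 without *pry-1(mu38)* replicate 2 and to -0.82 without N2 replicate 1.

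After TMM scaling, the 3 members differed in how well the libraries of a strain agreed. For *miR-50* the log2 ratio of replicate 2 over replicate 1 was 0.22 in *pry-1(mu38)* and 0.11 in N2, smaller than the median size over the 83 miRNAs, which was 0.55 in *pry-1(mu38)* and 0.35 in N2. For *miR-90* the ratio was -0.60 in *pry-1(mu38)* and -0.24 in N2, near those medians. For *miR-62* it was 1.03 in *pry-1(mu38)* and 0.80 in N2, the 17th and the 11th largest gap of the 83 in these strains. Before TMM scaling, the exact intervals of the 2 libraries of a strain did not overlap, for *miR-62* as for *miR-50* and *miR-90*. These intervals take reads as independent, which reads copied by PCR are not. The N2 replicate 2 value of *miR-62* also rests on its placement. The 95% exact intervals for *miR-62* before TMM scaling were 12.1 to 21.1 and 32.8 to 44.3 CPM in the *pry-1(mu38)* libraries, and 13.2 to 19.4 and 30.1 to 39.3 CPM in the N2 libraries. With upper-quartile scaling *miR-90* ran from 90270 to 92470 CPM in *pry-1(mu38)* and from 157815 to 161349 in N2. *miR-50* then ran from 1480 to 2558 CPM in *pry-1(mu38)* and from 2345 to 2922 in N2. With library totals alone, *miR-90* in N2 was higher in replicate 2, at 146374 CPM against 140226. Which of *miR-50* and *miR-90* agreed better thus depended on the scaling.

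**Figure D4:**
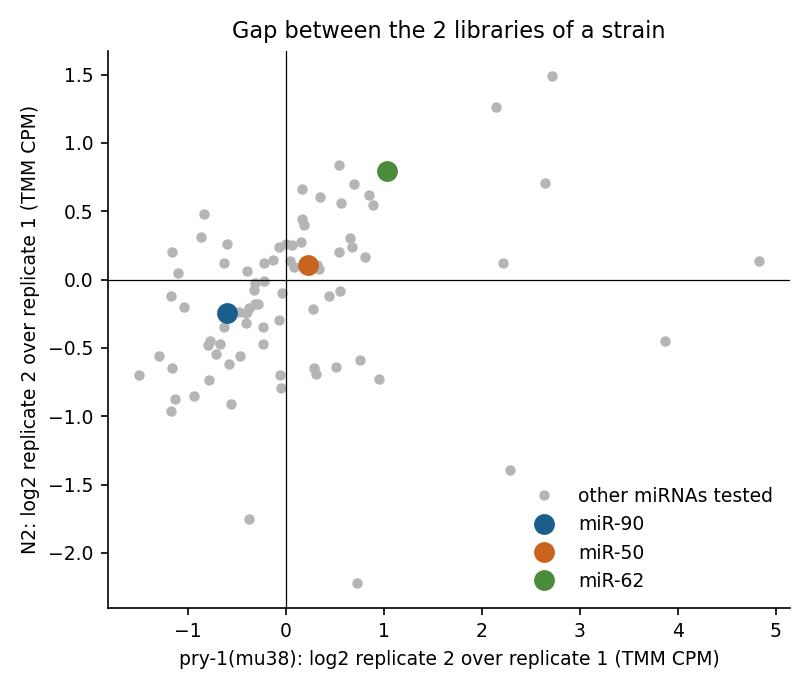
Log2 ratio of replicate 2 over replicate 1 (TMM-normalized CPM) in *pry-1(mu38)* (x axis) and in N2 (y axis) for the 83 miRNAs tested. *miR-62* lies high on both axes at 1.03 and 0.80, *miR-50* lies near the origin, and *miR-90* is below 0 on both.

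The other introns that equal a hairpin were counted too, as a description chosen after their positions were known. *miR-1020*, within T16G12.1 on chromosome III, had 2.44 and 5.59 CPM of all counts in *pry-1(mu38)* and 2.41 and 3.54 in N2. Its replicate 2 library was the higher one in both strains, as for *miR-62*, but its counts ran from 8 to 26 and its row could not be checked by a read total. *miR-4816*, within T09B4.2 on chromosome I, had 8.53 and 7.52 CPM in *pry-1(mu38)* and 5.86 and 7.55 in N2, and showed no such order. The 3 intron hairpins were at 38.3 CPM or less in every library, far under the hairpin members *miR-50* and *miR-90*. Other miRNAs of the table, outside these 3, lay as low in every library, so a low level was not particular to intron hairpins.

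The pattern of each member over the 4 libraries was also set against those of the other placed miRNAs, by the root mean square difference of log2 TMM-normalized CPM centred on each miRNA's own mean. The nearest to *miR-90* were *miR-233* (0.11) and *miR-49* (0.11), and the nearest to *miR-50* were *miR-80* (0.04) and *miR-232* (0.10). The nearest to *miR-62* were *miR-1* (0.09) and *miR-793* (0.24). *miR-1* had 70.1 and 126 TMM-normalized CPM in *pry-1(mu38)* and 75.2 and 115 in N2. No member was among the nearest of another, and the distance was 0.37 between *miR-90* and *miR-50*, 0.39 between *miR-50* and *miR-62* and 0.74 between *miR-90* and *miR-62*. With 4 libraries that are shared by all miRNAs, these distances describe these libraries only.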

How the data were processed

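Small RNA of L1 animals was counted in 4 libraries, grouped by the strain and replicate number in their titles. The authors deposited raw counts per miRNA and library, without normalization. Their methods name miRBase and WBcel235 for known miRNAs and miRDeep2 for candidates, and do not say which alignments the table counts. The submitters' processing notes also name BWA and DESeq. Versions, trimming and how ambiguous reads were shared out are not given in the sources used here. The table has 219 rows and 2 empty cells.

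Columns are displaced by up to 3 rows. The N2 replicate 1 column was held, and in each other column the count within 3 rows was taken that made the sum equal to the read total listed by the study. A displaced match stood by itself from 1000 reads, if unique with no sum within 10 reads. Other matches needed the displacement of the nearest placed miRNA or, under 100 reads, of both neighbours. Sums within 0.1% were accepted at the nearest displacement, and within 1% between 2 equal neighbours, the tolerance that admits *miR-62*. It was set with the *miR-62* counts known. Of 126 names with a listed total, 85 were placed (30 as printed, 48 displaced, 5 within 0.1%, 2 within 1%), and 41 were left out. *miR-45* repeats the counts of *miR-44* and was dropped, which left 84. Placed rows held 89.7% to 91.1% of each library. The placing was tested on simulated tables and the edgeR test on simulated counts. Each total in the simulated tables was the exact sum of its row, so a row that misses its total, like that of *miR-62*, was not simulated. The simulated counts were set to vary less between libraries than these data, so they do not show how the test does at this spread.

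Library sizes were sums over all rows. edgeR 4.0.16 (R 4.3.3) was run with TMM, filterByExpr, glmQLFit and glmQLFTest, without covariates, two-sided, with Benjamini-Hochberg adjustment over 83 miRNAs. DESeq2 1.42.0 was an alternative. The SE is the size of the log2 fold change over the square root of F, and the 95% interval uses the degrees of freedom of the fit. Family measures were compared by exact permutation tests (scipy 1.17.1). Nothing says that the libraries of a strain came from separate cultures, so p-values measure the spread between these libraries, which may be technical.

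By rule the text names the members, a list drawn up as mirtrons (*miR-62*, *miR-1018*, *miR-1019* and *miR-1020*) where placed, the 3 most abundant miRNAs, the 2 nearest in pattern to each member, and any called miRNA. Of that list, the hairpins of *miR-62* and *miR-1020* equal an annotated intron and that of *miR-1018* does not. *miR-1018* and *miR-1020* could not be placed by a total, and *miR-1019* is not among the rows used here. *miR-1020*, *miR-4816* and the miRNAs with the 3′ end of *miR-62* were named after their values or sequences were seen. Members and lists were chosen with earlier results of these data known. Positions come from Ensembl release 115, which names 143 of the 148 miRNAs. Sequences come from the study's supplement.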

Additional observations from a re-analysis of the deposited data

How the results depend on the processing

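All 15 alternatives kept the direction of *miR-90*, with log2 fold changes from -0.80 (upper-quartile scaling) to -0.47 under the other scalings, filters, tests and the block, and edgeR or DESeq2 adjusted p-values from 0.304 to 0.846. In the rows as deposited it was -0.79 (edgeR adjusted p = 0.867). Upper-quartile scaling moved the median of all miRNAs by -0.29. Relative to its own median, *miR-90* was at -0.64 with it and at -0.59 with TMM, and *miR-62* at 0.06 and -0.01. The log2 fold change of *miR-62* was -0.11 with upper-quartile scaling and -1.57 in the rows as deposited, where *miR-50* was at -2.33. In the rows as deposited the differences of the within-family measures were 3.72 percentage points for the *miR-90* share, -42.6 for *miR-50* per 1000 *miR-90* and -0.195 for *miR-62* per 1000 *miR-90*, and these take N2 replicate 2 counts from rows that do not meet the read totals.

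Another rule of placing rows, chosen after seeing the data, accepted the nearest displacement also under 100 reads. It also narrowed the tolerance between 2 equal neighbours from 1% to 0.1%, so that *miR-62* had no row. The number of miRNAs called was 0 in 10 alternatives and 3 with DESeq2's Wald test. It was 1 with edgeR's exact test and 1, *miR-2209c*, with that other rule of placing rows. Without one library in turn, where the lone library of a strain is assumed to vary like the other strain, it ranged from 0 to 8 (edgeR), *miR-90* from -0.76 to -0.35, *miR-50* from -0.557 to 0.0307 and *miR-62* from -0.83 to 0.56. The difference of the family share ranged from -5.40 to -2.77 percentage points and that of the *miR-90* share of the family from -1.15 to 0.0531. It ranged from -0.516 to 11.8 for *miR-50* per 1000 *miR-90*, from -0.0363 to 0.254 for *miR-62* per 1000 *miR-90* and from -1.64 to 4.84 for *miR-62* per 1000 *miR-50*. Causes were not tested.

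The replicate numbers are not described as shared cultures or days, and deviations of equally numbered libraries correlated at 0.297 over the 83 miRNAs. With the replicate block 0 miRNAs were called and 13 had an unadjusted p-value under 0.05 (edgeR), and the log2 fold changes were -0.50 for *miR-90*, -0.12 for *miR-50* and 0.07 for *miR-62*.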
